A study of Mus musculus with 5 samples.

Results

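The Kruppel-like factor family was described by 10 of its genes across 5 RNA sequencing libraries of B16F10 cells, a pigmented mouse melanoma line. The genes are Klf2, Klf3, Klf4, Klf5, Klf6, Klf7, Klf9, Klf10, Klf13 and Klf15, found by their symbol among the 54699 genes of the deposited table, and each symbol matched 1 row. They were chosen by name with their FPKM in these same 5 libraries and their ratios already known, and no threshold was applied. Their levels, ratios and counts are therefore descriptions and support nothing beyond themselves. The table holds 7 further Kruppel-like factor genes, which are set beside them below.

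Every culture had received a lentivirus and was kept in DMEM with fetal bovine serum. One was forced to express Myod1, the master regulator of the muscle lineage, and one Pparg, the nuclear receptor that drives fat cell differentiation. Both were taken on day 8, as was the culture with the empty expression vector, which is the control of both, so these 2 comparisons share it. The Setdb1 knockdown culture carried a short hairpin RNA against this histone H3 lysine 9 methyltransferase and was taken on day 7 with its own control, labelled as the empty knockdown vector; whether that vector holds a hairpin without a target is not given in the sources used here. The empty-vector cultures are labelled wild type. The promoter of the expression vector, the number of hairpins and whether cells were cloned are not given in the sources used here. Each group had 1 library, so no difference has a replicate check and no test between conditions was possible.

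Kruppel-like factors bind GC-rich and CACCC-type DNA elements through zinc fingers at their carboxyl end, and they differ in the parts outside the fingers, which recruit activators or repressors. Several, such as Klf2, Klf4, Klf6 and Klf10, are quickly induced by serum, shear stress, cytokines or growth factors. In fat cell precursors Klf4, Klf5, Klf9 and Klf15 are known to promote differentiation, while Klf2, Klf3 and Klf7 are known to restrain it. In muscle, Klf15 controls amino acid and lipid use, and Klf2 and Klf4 lie downstream of the kinase ERK5.

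Levels are FPKM, which divides fragments by gene length and by a library total, here one that the authors had scaled between libraries. Levels of different genes are therefore per length, while ratios between libraries depend on that scaling, most of all with Myod1 expression. The libraries held 16214802 to 18300670 reads, recovered from the FPKM values. A level is given with its 95% Wilson interval and a fold with its exact 95% binomial interval, both computed from the reads and both covering counting error only. The log2 ratio is that of FPKM + 1, which understates the change of low genes, and folds are ratios of FPKM with no pseudocount. The targeted genes went with the labels: Myod1 and Pparg had 0 reads outside their own library, with 7610 and 2514 reads there, and the level of Setdb1 in the knockdown library was 8.83% of that in its control. The melanocyte markers Mitf, Sox10, Pmel, Tyr, Tyrp1, Dct and Mlana were present in all 5 libraries, with a summed FPKM of 2195 to 8985. In these bulk samples fewer cells that express a gene and less RNA per cell cannot be told apart.

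Of the 10 genes, 8 reached an FPKM of 1 in at least 1 library and entered the comparison across all 12842 such genes. Klf5 and Klf7 did not reach it. Klf6 was the most abundant of the 10 in both controls and with Pparg expression, Klf15 in the Myod1 expression library and Klf2 in the Setdb1 knockdown library. Klf5 was the lowest in all 5 libraries. The intervals of Klf15 and Klf6 overlapped in the Myod1 expression library, so their order there is not set by counting. In the Setdb1 knockdown library Klf2 stood apart from Klf6, the next in order.

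**Figure D1:**
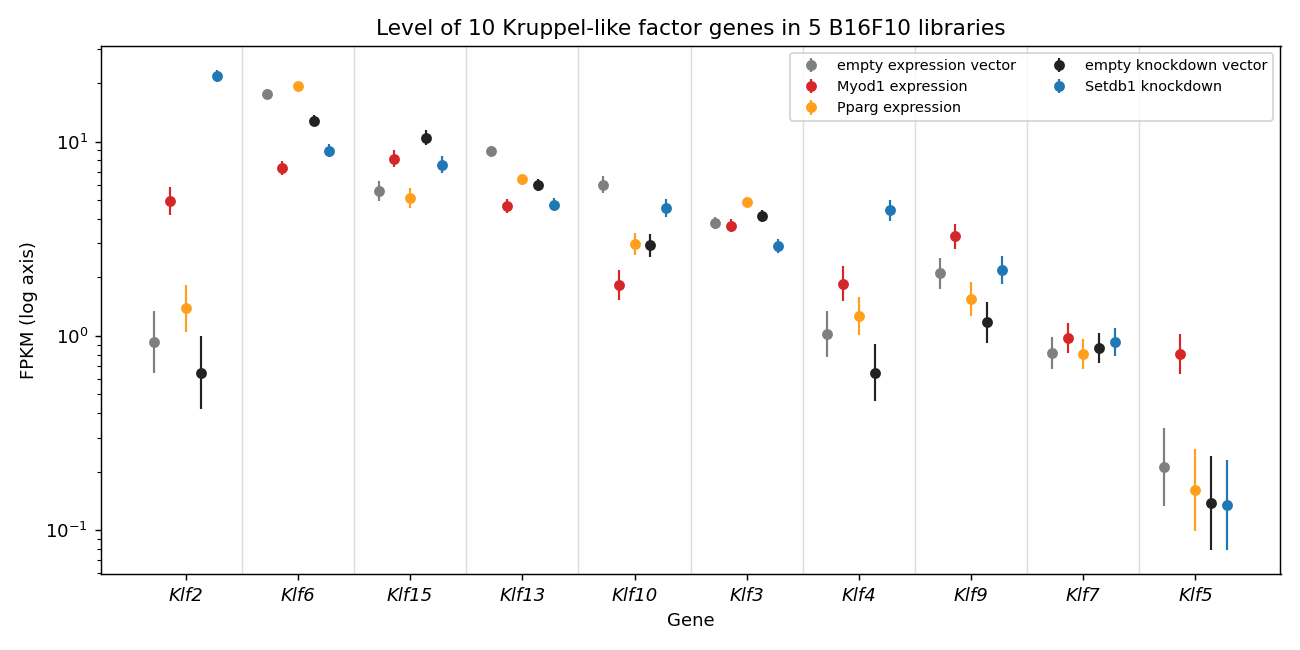
FPKM of 10 Kruppel-like factor genes (log axis) in 5 libraries of 1 culture each, with points for the level and bars for the 95% Wilson counting interval. Klf2 lies at 21.7 in the Setdb1 knockdown library and below 5 in the other 4, and Klf7 lies between 0.808 and 0.978 in all 5.

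Klf2, a factor of endothelial and lymphocyte quiescence, had the widest range of the 10. Among the controls its FPKM was 0.928 (interval 0.642 to 1.34) with the empty expression vector and 0.648 (0.419 to 1.0) with the empty knockdown vector. Among the treated libraries Setdb1 knockdown had 21.7 (20.2 to 23.4), Myod1 expression 4.96 (4.21 to 5.84) and Pparg expression 1.38 (1.05 to 1.83). The knockdown library was 4.38 times the next highest, and both it and the Myod1 expression library lay apart from both controls. With Setdb1 knockdown the level was 33.6-fold that of its control (21.6 to 55.3), on 743 against 20 reads, and the log2 ratio of 3.79 ranked 2 from the top of 12842 genes. With Myod1 expression it was 5.34-fold that of its control (3.55 to 8.32), a log2 ratio of 1.63. With Pparg expression the fold was 1.49 (0.919 to 2.46), an interval that includes no difference, but 2.14 (1.25 to 3.80) against the other control. Between the controls Klf2 differed by a log2 ratio of -0.23.

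Klf4, an epithelial barrier factor and one of the genes used to reprogram cells to pluripotency, had the same order of libraries. Its FPKM was 1.02 with the empty expression vector, 1.86 with Myod1 expression, 1.27 with Pparg expression, 0.647 with the empty knockdown vector and 4.43 with Setdb1 knockdown. The Myod1 expression and Setdb1 knockdown libraries were above both controls with intervals apart, and the Pparg expression library overlapped with the empty expression vector. The fold was 6.85 (4.75 to 10.2) with Setdb1 knockdown, with a log2 ratio of 1.72, and 1.81 (1.27 to 2.61) with Myod1 expression, with a log2 ratio of 0.50. Klf4 rested on 33 to 250 reads.

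The upstream sequences of Klf2 and Klf4, highest in the Setdb1 knockdown library, are shown beside that of Klf6, which had less than its control there. They are RefSeq windows of assembly GRCm38.p6, from 250 to 31 bases before the annotated start, 5′ to 3′ on the gene's strand. Klf2 is at chr8:72318812-72319031 on the plus strand, Klf4 at chr4:55532506-55532725 on the minus strand and Klf6 at chr13:5861239-5861458 on the plus strand. Capitals mark the GC box GGGCGG, which Sp and Kruppel-like factors can bind, on either strand, and the core of the Mef2 motif, CTA and TAG with any 4 bases between them.
Klf2: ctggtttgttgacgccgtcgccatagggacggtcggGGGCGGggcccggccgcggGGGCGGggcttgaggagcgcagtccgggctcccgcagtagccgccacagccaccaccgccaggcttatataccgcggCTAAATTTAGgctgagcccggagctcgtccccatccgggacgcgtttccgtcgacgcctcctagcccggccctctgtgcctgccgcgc
Klf4: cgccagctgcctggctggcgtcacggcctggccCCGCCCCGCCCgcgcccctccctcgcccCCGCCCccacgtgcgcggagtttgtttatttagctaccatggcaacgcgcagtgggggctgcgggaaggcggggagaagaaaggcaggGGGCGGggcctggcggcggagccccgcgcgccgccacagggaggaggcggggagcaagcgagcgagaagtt
Klf6: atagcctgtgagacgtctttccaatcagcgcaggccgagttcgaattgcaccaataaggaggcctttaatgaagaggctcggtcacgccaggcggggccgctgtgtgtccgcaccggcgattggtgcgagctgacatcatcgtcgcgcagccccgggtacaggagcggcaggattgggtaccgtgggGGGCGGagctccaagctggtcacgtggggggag
Klf2 holds 2 GC boxes and 1 Mef2 core, Klf4 holds 4 GC boxes, 2 of them overlapping by 1 base, and Klf6 holds 1 GC box. Over the full windows of 300 bases, which end 50 bases after the start, 8 of the 10 genes had an entry, and Klf5 and Klf10 had none. A GC box was found in 7 of these 8, against 35.7% of the 32851 windows of all genes. The windows of the 8 were 58.3% (Klf7) to 76.7% (Klf3) G and C, and the counts were not adjusted for this. CACCC, on either strand, was found in 6 of the 8, against 57.5%. The Mef2 core was found in Klf2 alone among the 8, starting 118 bases before the start, against 3.69% of all windows. The letters CANNTG, the general E-box pattern, were found in 6 of the 8, against 72.3%. This pattern leaves the inner bases open and is not particular to Myod1. The matches were CAGCTG and CACGTG in Klf4 and CACGTG in Klf6, and Klf2 had no match. These matches are letters in a window and show no binding.

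Klf5, a factor of proliferating epithelium and of early fat cell differentiation, was low throughout. It had an FPKM of 0.212 with the empty expression vector, 0.807 with Myod1 expression, 0.160 with Pparg expression, 0.138 with the empty knockdown vector and 0.135 with Setdb1 knockdown. The Myod1 expression library alone lay apart from the other 4, whose intervals overlapped. It rested on 66 reads against 18 in its control, a fold of 3.81 (2.24 to 6.82). At a log2 ratio of 0.58 the pseudocount holds this below the 2-fold limit, and Klf5 was outside the comparison of all genes.

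Klf6, induced by injury and studied as a tumour suppressor, had an FPKM of 17.6 with the empty expression vector, 7.31 with Myod1 expression, 19.3 with Pparg expression, 12.8 with the empty knockdown vector and 8.98 with Setdb1 knockdown. The Myod1 expression and Setdb1 knockdown libraries lay below both controls with intervals apart. With Myod1 expression 41.7% of the control level remained, a fold of 0.417 (0.375 to 0.462) and a log2 ratio of -1.16. Against the other control the fold was 0.570 and the log2 ratio -0.73, short of 2-fold, since the empty knockdown vector itself had 73.1% of the level of the empty expression vector. With Setdb1 knockdown the interval of the fold was 0.635 to 0.772 and the log2 ratio -0.47. That is close in size to the difference of -0.42 between the controls, and with the trends of GC content and length removed it was -0.15.

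Klf7, the closest relative of Klf6 and known for neuron development, was the steadiest of the 10, with FPKM of 0.813 with the empty expression vector, 0.978 with Myod1 expression, 0.808 with Pparg expression, 0.868 with the empty knockdown vector and 0.930 with Setdb1 knockdown. All 5 intervals overlapped. Klf7 shares 39.3% of its exon bases with Gm26649 on the opposite strand, which is listed at 0 in all libraries, and whether counting used strand is not given in the sources used here.

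Klf9, Klf10 and Klf13 share a domain that binds the corepressor Sin3a. Klf9, induced by thyroid hormone and glucocorticoids, had an FPKM of 2.10 with the empty expression vector, 3.25 with Myod1 expression, 1.55 with Pparg expression, 1.17 with the empty knockdown vector and 2.19 with Setdb1 knockdown. The Myod1 expression library was the highest and lay apart from both controls, with a fold of 1.55 (1.21 to 1.99) against its own. The Setdb1 knockdown library was 1.86-fold its control (1.37 to 2.55), but 1.04-fold the other control (0.803 to 1.35).

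Klf10, named for its early induction by TGF-beta, had an FPKM of 6.01 with the empty expression vector, 1.83 with Myod1 expression, 2.97 with Pparg expression, 2.92 with the empty knockdown vector and 4.55 with Setdb1 knockdown. The highest level was in a control, and the controls themselves differed, the empty knockdown vector having 48.6% of the level of the empty expression vector, a log2 ratio of -0.84. Of the treated libraries the Myod1 expression library alone lay outside the range of the controls. It had 30.4% of its control's level, a fold of 0.304 (0.246 to 0.374) and a log2 ratio of -1.31, but 62.6% of the other control's level, with a log2 ratio of -0.47. For Pparg expression the log2 ratio was -0.82 against its control and 0.02 against the other one. For Setdb1 knockdown it was 0.50 and turned to -0.34 against the other control.

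Klf13, an activator of Ccl5 in T cells, had an FPKM of 8.97 with the empty expression vector, 4.65 with Myod1 expression, 6.41 with Pparg expression, 5.99 with the empty knockdown vector and 4.74 with Setdb1 knockdown. The Myod1 expression and Setdb1 knockdown libraries were the lowest and lay below both controls with intervals apart. The folds were 0.519 (0.467 to 0.575) with Myod1 expression and 0.792 (0.712 to 0.880) with Setdb1 knockdown, with log2 ratios of -0.82 and -0.28. The controls differed by -0.51.

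Klf3, a repressor that works through the corepressor Ctbp, varied little. Its FPKM was 3.81 with the empty expression vector, 3.68 with Myod1 expression, 4.90 with Pparg expression, 4.15 with the empty knockdown vector and 2.90 with Setdb1 knockdown. The Pparg expression library lay above both controls and the Setdb1 knockdown library below both, with intervals apart. The folds were 1.29 (1.17 to 1.42) and 0.699 (0.627 to 0.778), each short of 2-fold. Klf3 overlaps Gm20033 on the opposite strand over 404 exon bases, and Gm20033 had 50 reads in the Myod1 expression library and 0 to 5 in the others.

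Klf15, the glucocorticoid-induced regulator of amino acid, glucose and lipid use in muscle and fat, had an FPKM of 5.57 with the empty expression vector, 8.16 with Myod1 expression, 5.12 with Pparg expression, 10.5 with the empty knockdown vector and 7.61 with Setdb1 knockdown. The highest level was again in a control. The Myod1 expression and Setdb1 knockdown libraries lay between the controls, and the interval of the Pparg expression library overlapped that of the empty expression vector. Its log2 ratio between the controls, 0.80, was larger in size than in any of the 3 treated comparisons, which gave 0.48 (Myod1 expression), -0.10 (Pparg expression) and -0.41 (Setdb1 knockdown, against its own control). Against the other control these were -0.32, -0.90 and 0.39, so the sign of the first and last turned.

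**Figure D2:**
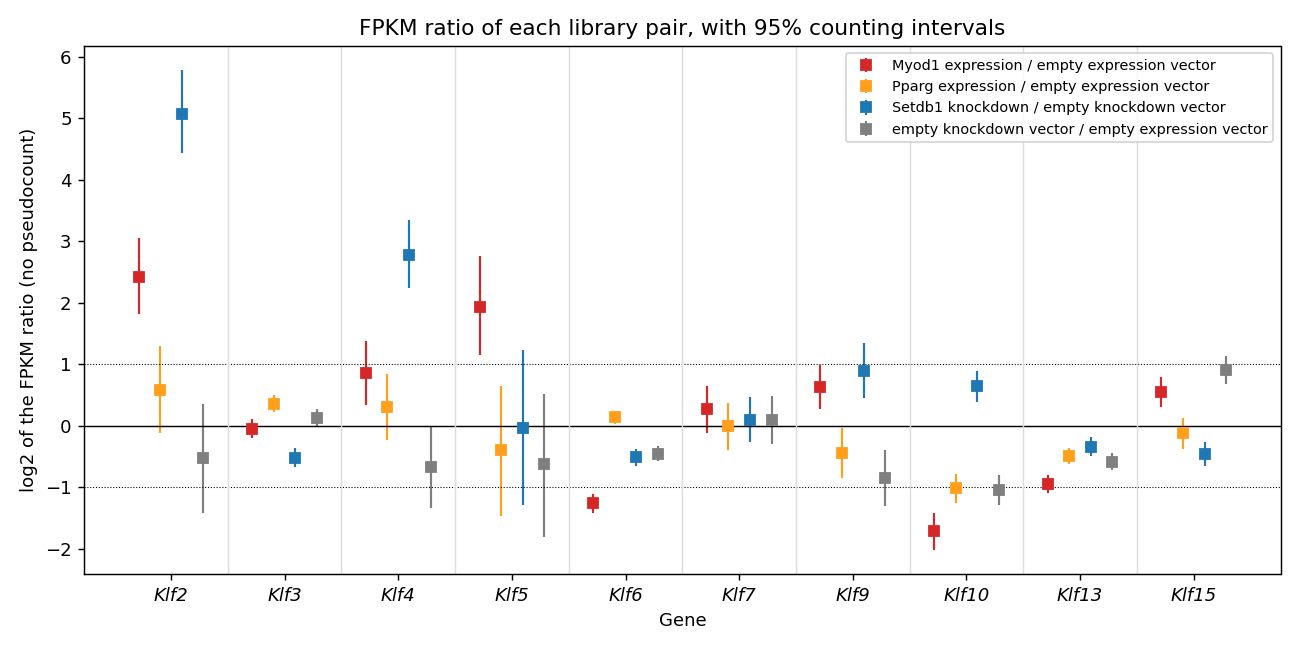
Log2 of the FPKM ratio with no pseudocount for each gene in 4 library pairs, 1 library on each side. Bars are 95% binomial counting intervals and dotted lines mark 2-fold. Klf2 at 33.6-fold and Klf4 at 6.85-fold with Setdb1 knockdown stand above the other pairs of the same gene, while for Klf15 the pair of controls is the highest.

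Set against all genes compared on the scale of log2(FPKM + 1), the members were split. With Myod1 expression 1 of 8 genes (Klf2) was at least 2-fold higher, as were 14% of the 12842 genes, and 2 of 8 (Klf6 and Klf10) were at least 2-fold lower, as were 7.55%. The median log2 ratio of the 8 was 0.21, against 0.02 over all genes. With Pparg expression 0 of 8 passed 2-fold in either direction, where 4.22% of all genes were higher and 2.3% lower. Klf10 came closest, at -0.82, and 4 of the 8 were higher and 4 lower. Without the pseudocount Klf10 was past 2-fold with Pparg expression, at a fold of 0.495 (0.420 to 0.582). With Setdb1 knockdown 2 of 8 (Klf2 and Klf4) were at least 2-fold higher, as were 9.34% of all genes, and 0 of 8 lower, against 10.3%. The other 6 lay between -0.47 and 0.55. Between the controls 0 of 8 passed, where 1.23% of all genes were higher and 1.44% lower, but 6 of 8 were lower with the empty knockdown vector and the median of the 8 was -0.36. Without the pseudocount Klf10 had a fold of 0.486 between the controls. Against the other control 1 of 8 (Klf2) was at least 2-fold higher with Myod1 expression, beside 15.1% of all genes, and 0 of 8 lower, beside 7.51%. Without the pseudocount Klf4 (2.87-fold) and Klf9 (2.77-fold) passed there too. In the same way 0 of 8 passed with Pparg expression (5.52% higher and 2.41% lower over all genes). Without the pseudocount Klf2 was then 2.14-fold and Klf15 0.490-fold. With Setdb1 knockdown 2 of 8 (Klf2 and Klf4) were higher, beside 8.72%, and 0 of 8 lower, beside 11%. The median of the 8 turned to -0.22 with Myod1 expression and, from 0.11, to -0.13 with Setdb1 knockdown, and went from 0.01 to 0.21 with Pparg expression. The 2-fold differences of Klf2 and Klf4 were thus present against either control, and those of Klf6 and Klf10 with Myod1 expression against 1 of them. With values divided by the column sum, 39.4% of the genes past 2-fold with Myod1 expression were higher, in place of 65.0%.

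**Figure D3:**
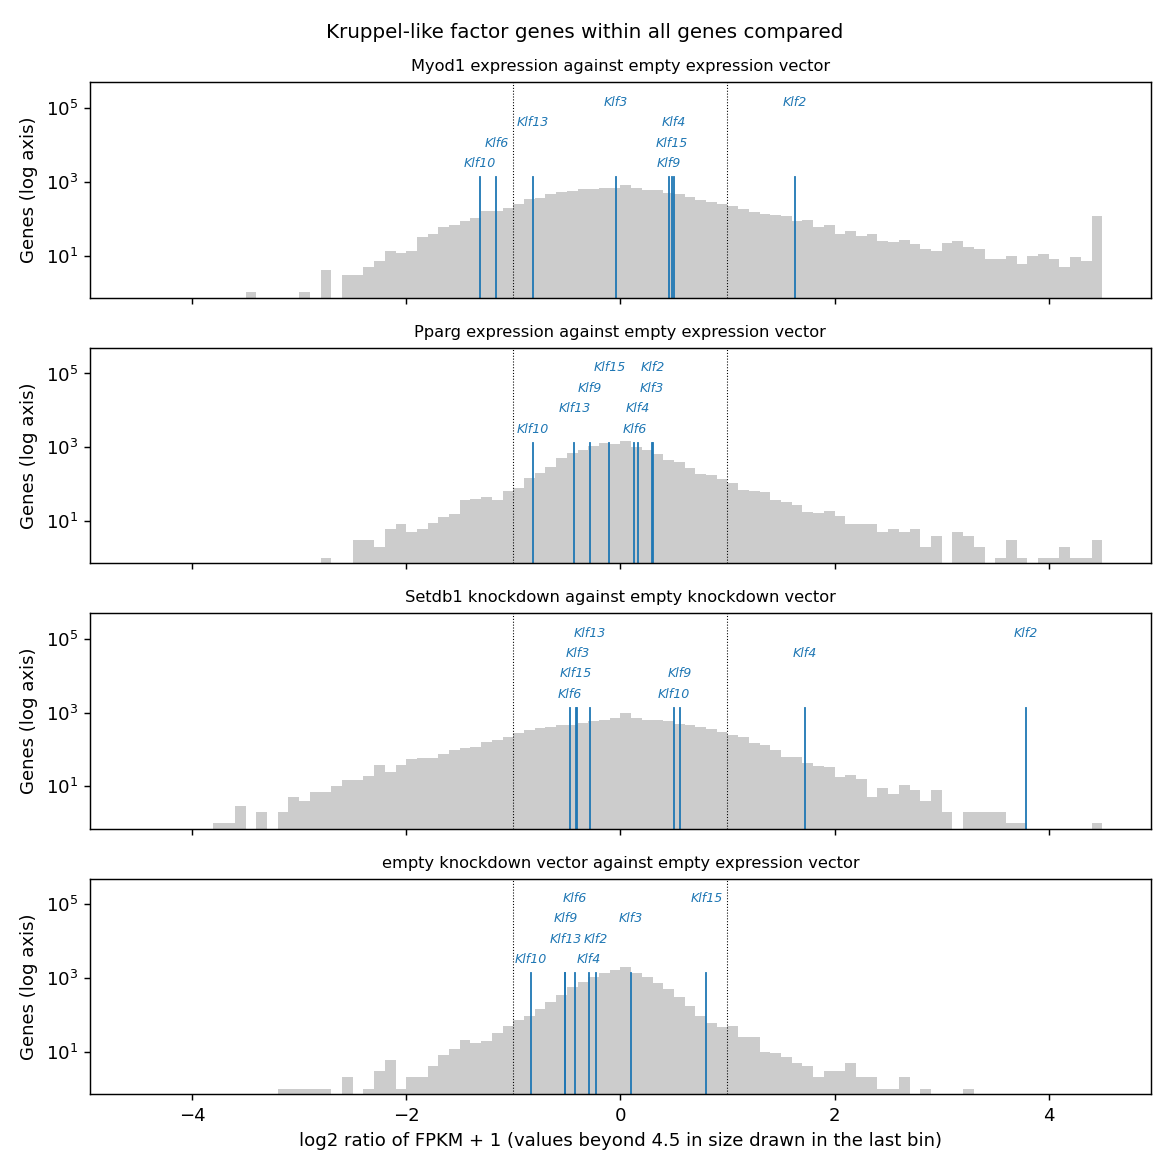
Histograms of the log2 ratio of FPKM + 1 over 12842 genes (log axis of gene counts) for 4 library pairs, with blue lines at the 8 Kruppel-like factor genes compared and dotted lines at 2-fold. Klf2 is at 3.79 with Setdb1 knockdown, near the upper end of all genes, and in the pair of controls all 8 lie within 2-fold on this scale.

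The 10 genes summed to an FPKM of 47.0 with the empty expression vector, 37.5 with Myod1 expression, 43.9 with Pparg expression, 39.8 with the empty knockdown vector and 58.2 with Setdb1 knockdown. Without Klf2 the sum with Setdb1 knockdown was 36.5, against 39.2 in its control. Klf2 made up 1.63% of the sum with the empty knockdown vector and 37.3% with Setdb1 knockdown, while Klf6 went from 32.2% to 15.4%. With Myod1 expression Klf6 went from 37.4% of the sum in the control to 19.5%, Klf15 from 11.9% to 21.8% and Klf2 from 1.97% to 13.2%. With Pparg expression Klf6 took 44.0%, its largest share.

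**Figure D4:**
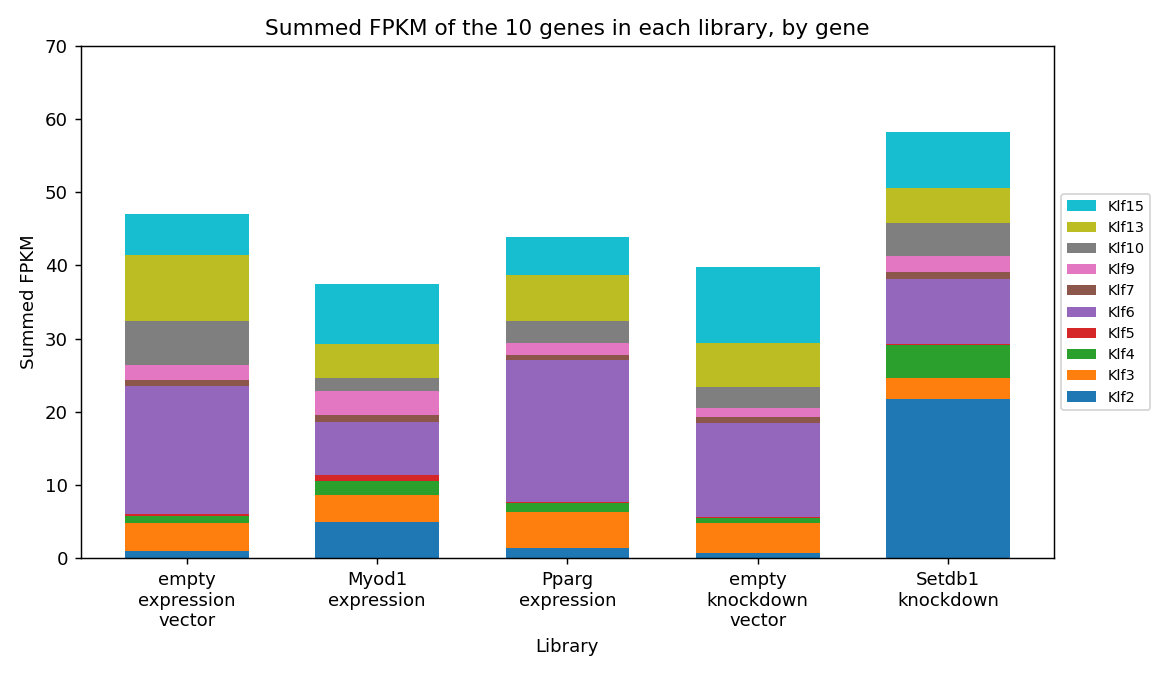
Stacked bars of the FPKM of the 10 genes in each of 5 libraries, 1 bar per library from 0. The Setdb1 knockdown bar is the tallest at 58.2, of which Klf2 makes up 21.7, and the Klf6 segment is smallest with Myod1 expression.

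Of the 7 Kruppel-like factor genes outside the 10, 4 reached an FPKM of 1, and on the scale of log2(FPKM + 1) 0 of these passed 2-fold in the 3 treated comparisons. The shares of all genes were 14% higher and 7.55% lower for Myod1, 4.22% and 2.3% for Pparg, and 9.34% and 10.3% for Setdb1, and a count of 0 of 4 does not set these genes apart. Klf16, a relative of Klf9 and Klf13, had 9.86 to 15.3 and was lowest with Setdb1 knockdown. Klf11, the closest relative of Klf10, had 3.47 with the empty expression vector, 1.25 with the empty knockdown vector and 2.70 with Setdb1 knockdown, so the controls again differed, by a log2 ratio of -0.99. Without the pseudocount Klf11 was 2.15-fold its control with Setdb1 knockdown (1.68 to 2.78), but 0.779-fold the other control. Klf12 had 0.464 to 1.18 FPKM, with folds of 0.424 (0.300 to 0.592) for Myod1 and 0.491 (0.362 to 0.661) for Pparg. Klf1, the erythroid factor, reached an FPKM of 1 with Setdb1 knockdown only, so it was compared only through the library where it was highest. It had 0.125 to 1.09 FPKM on 3 to 31 reads, with folds of 2.84 (1.10 to 8.64) for Pparg and 2.55 (1.25 to 5.62) for Setdb1. With the other control these were 1.59 (0.724 to 3.66), which includes no difference, and 4.56 (1.87 to 13.4). Klf8 stayed below an FPKM of 1 and had 28 reads with Myod1 expression against 2 in its control, a fold of 14.5 (3.67 to 126), and 3.72 (1.65 to 9.45) against the other control. Klf14 and Klf17 were listed at 0 in all 5 libraries. Of the 9 Sp genes, which share the type of zinc finger, Sp1, Sp2, Sp3 and Sp4 were compared. Sp3 was lower by -1.06 with Myod1 expression and by -1.16 with Setdb1 knockdown, and the median of the 4 was -0.64 and -0.67. Sp3 shares 109 exon bases with Sp3os on the opposite strand, which had 176 reads with Setdb1 knockdown and 27 in its control. The difference between the families was not tested.

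Genes around the family were taken from lists, and each count is given with the share of all 12842 genes past 2-fold in the same direction. Among 11 genes of the ERK5 and Mef2 input and of ubiquitin ligases, 3 were at least 2-fold higher with Myod1 expression, where 14% of all genes were: Mef2a (log2 ratio 2.53), Mef2c (2.0) and Mef2d (1.59), muscle transcription factors that also act at the Klf2 promoter. With Setdb1 knockdown Mef2b was higher (1.66, on 77 against 6 reads) and the ligase Itch lower (-1.22), beside 9.34% and 10.3% of all genes. Short of 2-fold there were Mapk7, which encodes ERK5 (0.70), its kinase Map2k5 (0.69), Mef2d (0.11), Mef2a (-0.49) and Mef2c (-0.79). Against the other control Mapk7 had 0.76, Map2k5 0.42 and Mef2d -0.45. Among 11 coactivators and corepressors the 2-fold limit was passed by Ncor1 with Setdb1 knockdown (-1.24, where 10.3% of all genes were lower) and by no other in the 3 comparisons. The shares of all genes past 2-fold in the others are 14% higher and 7.55% lower with Myod1 expression, 4.22% and 2.3% with Pparg expression, and 9.34% higher with Setdb1 knockdown.

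Of 17 genes reported as targets of Kruppel-like factors, 10 were compared. With Setdb1 knockdown 4 were at least 2-fold higher, beside 9.34% of all genes, namely Txnip (2.28), which binds thioredoxin, Ccl5 (1.41), a chemokine, Cdkn1a (1.13), the cell-cycle inhibitor p21, and Lgals3 (1.10), a galectin repressed by Klf3. Ccnd1, the cyclin D1 gene, was lower (-2.58, 1 of 10 beside 10.3% of all genes). The median was 0.88. With Myod1 expression 3 were higher (14% of all genes), the glucose transporter gene Slc2a4 (4.06), Cdkn1a (1.83) and Pdgfa (1.27), and Lgals3 was lower (-1.03, beside 7.55%). With Pparg expression Ccl5 (2.78) and Txnip (1.25) were higher, beside 4.22%. The controls differed in Ccl5 (2.37), Txnip (-1.36) and Lgals3 (-0.88). Set against the other control, 2 of the 10 were at least 2-fold higher with Setdb1 knockdown, beside 8.72% of all genes, and Txnip had 0.93 and Lgals3 0.22. With that control Lgals3 had -0.15 and Ccl5 -1.43 with Myod1 expression, the latter in place of 0.94, and Txnip had 1.61 in place of 0.25, so 4 of the 10 were higher (15.1% of all genes). For Pparg expression Ccl5 had 0.41, short of 2-fold, and Txnip 2.61. Thbd, an endothelial Klf2 target, was listed at 0 in all 5 libraries, and Nos3 and S1pr1 stayed below an FPKM of 1.

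Immediate early genes, which respond to the same stimuli as Klf2, Klf4, Klf6 and Klf10, were counted in the same way. With Setdb1 knockdown 7 of 11 compared were at least 2-fold higher, where 9.34% of all genes were, led by Atf3 (3.51), Jun (2.45), Btg2 (2.0) and Junb (1.86), and the median was 1.60. With Myod1 expression 6 were higher (14% of all genes), among them Btg2 (3.74), Zfp36 (1.88) and Junb (1.78), and Ier3 was lower (-1.78, beside 7.55%), with a median of 1.14. With Pparg expression 3 were higher (4.22% of all genes), Btg2 (2.93), Junb (1.28) and Zfp36 (1.26), with a median of 0.85. Atf3 (-2.14) and Ier3 (-1.87) differed between the controls. Against the other control 6 of 11 were higher with Setdb1 knockdown (8.72% of all genes), 7 with Myod1 expression (15.1%) and 5 with Pparg expression (5.52%). None of the 11 was lower there, beside 11%, 7.51% and 2.41% in the same order. Fos and Egr1 were higher with Myod1 expression (1.73 and 1.53) and had -0.43 and -0.82 with Setdb1 knockdown. Cells were collected with trypsin, and the part of handling in these values was not tested.

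Among 8 compared genes of glucocorticoid and circadian control, which include known neighbours of Klf9 and Klf15 in these responses, 4 were at least 2-fold higher with Setdb1 knockdown, beside 9.34% of all genes: Per1 (1.88), Dbp (1.61), Dusp1 (1.16) and Tsc22d3 (1.03). Nr3c1, the glucocorticoid receptor gene, was lower (-1.33, beside 10.3%). Tsc22d3, when set against the other control, had 0.54 and Nr3c1 -0.98, both short of 2-fold, and Fkbp5, a glucocorticoid-induced chaperone gene, was lower (-1.20 in place of -0.89, beside 11% of all genes). With Myod1 expression Dbp (1.76) and Dusp1 (1.33) were higher (14% of all genes), and with Pparg expression Dbp (1.45, beside 4.22%). Of 10 compared genes of the TGF-beta and BMP response, 4 were at least 2-fold higher in each of the expression comparisons, beside 14% of all genes for Myod1 and 4.22% for Pparg, and 3 with Setdb1 knockdown, beside 9.34%. None of the 10 was lower in these 3 comparisons. When the other control was used, 3 were higher with Myod1 (15.1% of all genes), 3 with Pparg (5.52%) and 6 with Setdb1 knockdown (8.72%). Id2 was then lower with Pparg (-1.46, beside 2.41%), and Id2 differed by 1.10 between the controls. Id3, a dominant negative helix-loop-helix protein, was among them each time (4.16, 3.5 and 3.09), while Klf10, the TGF-beta-induced member, was below or within the range of the controls in the same libraries. Of 5 compared adipogenic regulators, Pparg (5.51), Cebpd (2.93) and Cebpb (1.11) were at least 2-fold higher with Pparg expression, beside 4.22% of all genes. Pparg itself was the forced gene and was compared only through that library. With Setdb1 knockdown Cebpb was higher (2.28, beside 9.34%), and it differed by -1.16 between the controls. Against the other control 4 of the 5 were higher with Pparg expression, now with Srebf1 (1.04), beside 5.52% of all genes. With Myod1 expression 2 of the 5 were then higher, Cebpb (1.16) and Cebpd (1.09), beside 15.1%, and Cebpb had 1.13 with Setdb1 knockdown, beside 8.72%. Cebpa was listed at 0 in all 5 libraries. The myogenic regulators Myod1 and Myog were found in the Myod1 expression library only.

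Genes with the most similar pattern over the 5 libraries were found by the distance between log2(FPKM + 1) profiles centred on their mean, among 10888 protein-coding genes. For Klf2 they were Ctsh (distance 0.99), Tcp11l2 (1.12) and Dyrk1b (1.17). Ctsh, a lysosomal protease gene, had log2 ratios of 1.65, 0.99 and 3.39 for Myod1, Pparg and Setdb1 in that order. For Klf4 they were Pld3 (0.06), Tab1 (0.13) and CAAA01118383.1 (0.15), and Pld3 had 0.54, 0.24 and 1.68. For Klf10 they were Hhipl1 (0.18), Col5a3 (0.26) and Map6 (0.27). For Klf6 they were Acot7 (0.17), Mr1 (0.20) and Washc4 (0.21). The profiles rest on 5 libraries.

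Across all genes the ratios changed with the GC content of transcripts. The transcript of Klf2 is 61.6% G and C, above 97.6% of the genes compared. Across 12679 genes the Spearman rho of log2 ratio and GC content was 0.39 with Setdb1 knockdown, 0.22 with Myod1 expression and -0.27 between the controls. With Setdb1 knockdown Klf2 and Klf4, at the 97.6 and 74.3 percentiles of GC content, had more than the control. Klf3 and Klf6, at 26.1 and 12.1, had less. The reverse held for Klf13 and Klf15, at 78.6 and 75.9, which had less, and for Klf9 and Klf10, at 35.4 and 32.7, which had more. Against the other control Klf13 had a log2 ratio of -0.80, Klf15 0.39, Klf9 0.04 and Klf10 -0.34. Genes are not independent replicates, and the part of GC content in the ratios was not tested beyond removing the trend. With trends of GC content and length removed, Klf2 had 3.18 with Setdb1 knockdown and 1.18 with Myod1 expression, and Klf4 had 1.45 and 0.30. Markers of endothelium, where Klf2 and Klf4 are abundant, were near 0: the summed FPKM of Pecam1, Cdh5, Kdr, Tek, Emcn and Erg was 0.139 with Setdb1 knockdown, with 5 of the 6 listed at 0, and 0.0192 to 0.633 over the libraries. The sums were 0 to 0.566 for 6 immune cell markers, 0.0723 to 0.473 for 6 keratinocyte and epithelial markers and 2.90 to 11.1 for 6 fibroblast markers, of which Dcn and Lum were listed at 0 throughout. Among the 7 melanocyte markers 5 were at least 2-fold lower in each of the expression comparisons, beside 7.55% of all genes for Myod1 and 2.3% for Pparg, and 1, Mitf, after Setdb1 knockdown, beside 10.3%.

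In the deposited table, whose positions are those of GRCm38, Klf2 (ENSMUSG00000055148) lies on chromosome 8 from 72319033 to 72321656, Klf4 (ENSMUSG00000003032) on chromosome 4 from 55527143 to 55532466, Klf6 (ENSMUSG00000000078) on chromosome 13 from 5861482 to 5870394 and Klf10 (ENSMUSG00000037465) on chromosome 15 from 38291463 to 38300706. Klf3 lies on chromosome 5 from 64803388, Klf5 on chromosome 14 from 99298691, Klf7 on chromosome 1 from 64029447, Klf9 on chromosome 19 from 23141226, Klf13 on chromosome 7 from 63886351 and Klf15 on chromosome 6 from 90462576. All 10 are annotated as protein coding, and values are per gene over its exons. How reads shared between the conserved zinc finger exons of relatives were counted is not given in the sources used here.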

How the data were processed

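RNA was measured in 5 libraries of a NEBNext Ultra RNA kit, 1 per group. The authors deposited 1 table of FPKM values. Per the submitters' processing notes CASAVA, HISAT2, featureCounts 1.5.0-p3 and the build GRCm38 were used. Strand setting and normalization are not given in the sources used here. FPKM times gene length were whole multiples of 1 step for 100% of values above 0 (tolerance 0.01 of a read), which gave the reads per gene. The number by which the authors divided was 0.859 to 1.10 times these reads, so libraries had been scaled to each other.

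The 12842 genes whose FPKM reached 1 in any library were compared by log2(FPKM + 1), and a difference counted from 2-fold. Of the identifiers shared with GENCODE M21, 98.3% had the same position. GC content came from the longest M21 transcript. Scripts ran in Python 3.11.15 with pandas 2.3.3, numpy 2.4.6 and scipy 1.17.1 and were tested on simulated data.

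The members, the 15 lists, the motifs and the comparisons were chosen with earlier results of these data known. Genes named are the members, targeted genes, other Kruppel-like and Sp genes compared, up to 6 list genes per comparison past 2-fold by size, and for the 4 members with the widest range the 3 genes of nearest profile. Genes named outside this rule were chosen after their values were seen. Klf18 and Ccn2 were not found under their symbols. Alternatives were other pseudocounts, filters, limits, scalings, removal of GC and length trends, and the other control.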

Additional observations from a re-analysis of the deposited data

How the results depend on the processing

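Klf2 kept its 2-fold call with Myod1 expression and Setdb1 knockdown, and Klf4 with Setdb1 knockdown, under the other pseudocounts, filters and scalings, the trend removal and the other control. Over these settings the log2 ratio of Klf2 was 3.18 to 5.07 with Setdb1 knockdown and 1.18 to 2.42 with Myod1 expression, and that of Klf4 with Setdb1 knockdown was 1.42 to 2.78. Klf6 with Myod1 expression ranged from -1.50 to -0.73 and Klf10 from -1.72 to -0.47. Against the other control 0 members were at least 2-fold lower with Myod1 expression in place of 2. At a 4-fold limit on the scale of log2(FPKM + 1), 0 were higher and 0 lower with Myod1 expression, and 1 (Klf2) was higher with Setdb1 knockdown in place of 2. Without the pseudocount Klf2 was 5.34-fold with Myod1 expression and Klf4 6.85-fold with Setdb1 knockdown, both past 4-fold. With values under 3 reads set to 3 reads and no pseudocount, 1 member (Klf10) was lower with Pparg expression and 1 between the controls in place of 0, and with a pseudocount of 0.1 again 1 between the controls. No called member changed sign. Over all genes a pseudocount of 0.1 gave 1694 lower in place of 970 with Myod1 expression, 1131 higher and 598 lower in place of 542 and 295 with Pparg expression, 1931 and 2096 in place of 1200 and 1326 with Setdb1 knockdown, and 419 and 533 in place of 158 and 185 between the controls. The 3-read minimum gave 1690 lower, 1089 and 528, 1928 and 2087, and 344 and 530 in that order, and the column sum gave 1907 lower with Myod1 expression. The 4-fold limit gave 559 and 49, 91 and 23, 118 and 192, and 18 and 18. A mean FPKM of at least 1 gave 99 higher between the controls. Dividing by the column sum moved the median of all genes with Myod1 expression to -0.26, from 0.02, and changed the share of higher genes among those past 2-fold from 65.0% to 39.4%. Scaling to the 75th percentile (-0.11) gave 52.7% and recovered reads scaled to 1 total (-0.10) gave 53.3%. With the column sum Klf2 was at 1.33, Klf13 passed 2-fold (-1.14) and Klf15 was at 0.13. With Pparg expression recovered reads scaled to 1 total gave 76.4% in place of 64.8%. No paired analysis was possible because each group had 1 library. Depth limits Klf2, Klf4 and Klf5 most, which rested on 20, 33 and 12 reads in the empty knockdown vector library.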
